A study of Homo sapiens with 6 samples.

Results

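The enzymes of de novo purine synthesis were examined in TPC-1 cells, a human papillary thyroid carcinoma line, with and without overexpression of *RRM2*. They were taken by gene symbol as 10 of the 58735 genes in the deposited table: *PPAT*, *GART*, *PFAS*, *PAICS*, *ADSL*, *ATIC*, *IMPDH1*, *IMPDH2*, *GMPS* and *ADSS*. The control group was 3 libraries of the wild strain. The other group, *RRM2*-OE-TPC-1, was 3 libraries of the same line infected with the lentiviral vector LV18, in which a CMV promoter drives full-length *RRM2*, and selected with puromycin. The control cells carried no empty vector, so infection and selection cannot be told apart from the effect of *RRM2*. Whether the overexpressing line is a single clone is not stated. The labels call the 3 libraries of a group biological replicates, and for the second and the third overexpressing library the genotype entry reads RRM3 or RRM4 where the title reads RRM2.

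Cells make purines either by salvaging bases and nucleosides or by building the ring from small precursors on phosphoribosyl pyrophosphate (PRPP). In the de novo route PPAT, GART, PFAS, PAICS, ADSL and ATIC carry PRPP to inosine monophosphate (IMP). From IMP, IMPDH and GMPS lead to GMP, and ADSS followed by ADSL leads to AMP. RRM2 is the small subunit of ribonucleotide reductase, which turns ribonucleotides of both purines and pyrimidines into the deoxyribonucleotides used for DNA synthesis.

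Levels are given as FPKM, fragments scaled to gene length and sequencing depth, so that genes can be set side by side. The libraries held 14317091 to 17084067 reads on genes. *RRM2* itself stood at 9.17, 9.05 and 8.52 FPKM in TPC-1 replicates 1 to 3 and at 50.4, 47.5 and 47.2 FPKM in *RRM2*-OE-TPC-1 replicates 1 to 3, a 5.42-fold higher mean with no overlap between the groups, in the direction of the titles of all 6 libraries. Of its coding bases 78.5% are also exon bases of AC007240.1 on the same strand, and reads of the transgene and of the cell's own gene cannot be told apart here. How reads over *RRM2* and AC007240.1 were counted is not given in the sources used here, so the size of the *RRM2* difference is uncertain. The thyroid label was checked against 7 lineage genes. *PAX8*, *FOXE1* and *HHEX* were expressed, whereas *TG*, *TSHR*, *SLC5A5* and *NKX2-1* stayed under 0.5 FPKM in every library. Markers of leukocytes summed to at most 0.483 FPKM in any library. Those of endothelium summed to 0.873 to 1.05 FPKM in TPC-1, nearly all of it *PECAM1*, and to 0.0667 to 0.115 FPKM in *RRM2*-OE-TPC-1. Those of fibroblasts summed to 2.78 to 3.16 and 2.78 to 2.94 FPKM, mostly *PDGFRB*, with *COL1A2*, *COL3A1* and *DCN* at 0. The summed level of 6 epithelial markers was 42.9 to 47.1 FPKM in TPC-1 and 88.4 to 90.8 FPKM in *RRM2*-OE-TPC-1, nearly all of it *KRT18*. Of these markers *KRT19*, *CDH1* and *EPCAM* stayed under 0.5 FPKM in every library. The part of these marker differences in the results below was not tested.

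*PPAT* and *PAICS*, which encode enzymes of the first and a later step, lie head to head on chromosome 4 with 125 bases between their annotated starts. The region is shown because a single stretch of DNA lies before both genes. The window shown also holds the E-box CACGTG, the palindromic site that MYC and MAX bind as a pair. The sequence below is from RefSeq (GRCh38.p14, chr4:56435566-56435865, minus strand) and covers 250 bases before to 50 bases after the *PPAT* start. The E-box, at 56435792 to 56435797, is in capitals. It lies before the start of *PPAT* but past the annotated start of *PAICS* at 56435741, and not in the 125 bases between them.

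PPAT: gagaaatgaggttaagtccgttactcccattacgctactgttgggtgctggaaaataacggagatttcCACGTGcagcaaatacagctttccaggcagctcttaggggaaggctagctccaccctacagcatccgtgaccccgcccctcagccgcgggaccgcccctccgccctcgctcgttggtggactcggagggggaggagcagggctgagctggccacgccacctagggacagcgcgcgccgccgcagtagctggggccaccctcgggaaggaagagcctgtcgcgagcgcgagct

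The same E-box lies near the end of a RefSeq window of *PAICS* (chr4:56435502-56435801, plus strand), in the 50 bases after the start. The other *PAICS* windows hold no E-box. The windows of *PPAT* and *PAICS* thus hold 1 site and not 2. *ATIC*, the enzyme that completes IMP, held 2 E-boxes in its window (chr2:215311809-215312108, plus strand), at 215312013 to 215312018 and at 215312088 to 215312093, also in capitals.

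ATIC: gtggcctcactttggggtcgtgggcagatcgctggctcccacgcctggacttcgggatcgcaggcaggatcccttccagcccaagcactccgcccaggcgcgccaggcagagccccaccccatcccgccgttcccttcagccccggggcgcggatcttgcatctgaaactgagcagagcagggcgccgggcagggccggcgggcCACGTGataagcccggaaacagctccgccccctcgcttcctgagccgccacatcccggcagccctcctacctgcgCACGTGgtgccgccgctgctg

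RefSeq windows were matched for 8 of the 10 genes, in 13 windows, *ADSS* under its symbol ADSS2. *ADSL* and *IMPDH2* were not matched. CACGTG was present in 3 of these 13 windows, of which those of *PPAT* and *PAICS* hold the same site, and in 7.26% of all 35116 windows of 300 bases. The cAMP response element TGACGTCA occurred in 0 of the 13 windows and in 1.85% of all windows. CCAAT, read on both strands, was in 3 of the 13 windows, all of *GART*, and in 34.6% of all windows. The *GART* windows chr21:33542843-33543142 and chr21:33542840-33543139 are nearly the same stretch and hold the same CCAAT sites. CCAAT was thus found for 1 of the 8 matched genes. TATAAA, read on both strands, was in 1 of the 13 windows, also of *GART*, and in 11.5% of all windows. These matches describe letters in a fixed window, and binding was not measured.

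Of the 10 genes, all of which passed the filter on low values, 7 rose in *RRM2*-OE-TPC-1 and 1 fell at an adjusted p of 0.05 or less (limma). The 7 were *PPAT*, *GART*, *PFAS*, *PAICS*, *ATIC*, *IMPDH1* and *ADSS*, and the 1 that fell was *IMPDH2*. Across the 13621 genes tested, 34.9% rose and 32.7% fell by the same rule, so that a call by itself was common in this comparison. None of the 10 passed the further threshold of an absolute log2 fold change of 1, which 11.5% of tested genes passed. The groups did not overlap for 8 of the 10 genes, against 72.2% of tested genes. The median log2 fold change of the 10 genes was 0.25, and that of all tested genes was 0.01. Here and below a log2 fold change is the difference of log2(FPKM + 0.1) between group means, *RRM2*-OE-TPC-1 minus TPC-1. In bulk RNA, fewer cells that express a gene and less RNA per cell cannot be told apart.

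**Figure D1:**
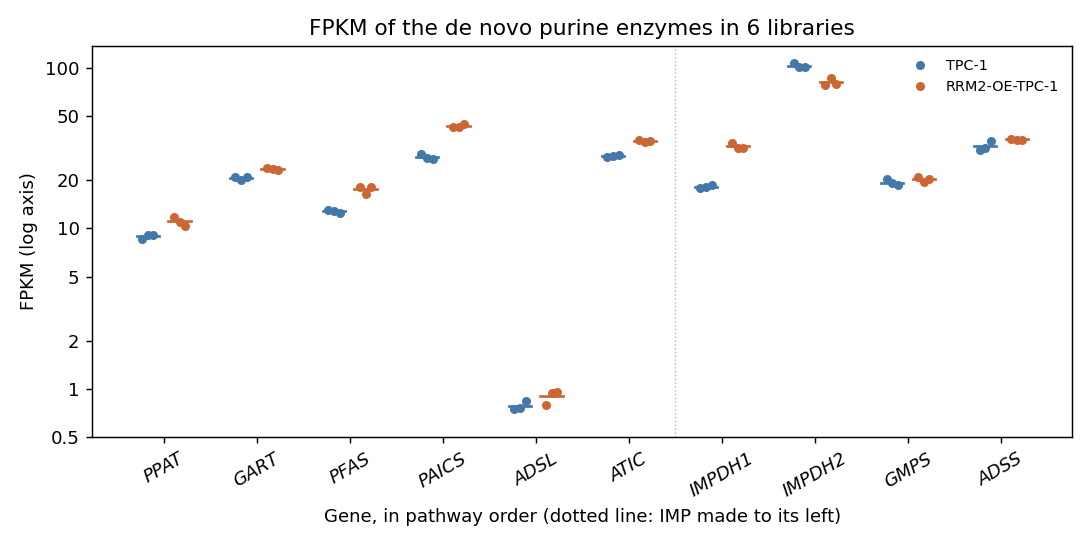
FPKM (log axis) of each enzyme gene in the 6 libraries, in pathway order, with the genes that make IMP to the left of the dotted line. Points are libraries, replicates 1 to 3 from left to right in each group, and bars are group means. *IMPDH2* is the highest and *ADSL* the lowest gene in both groups, and *PAICS* and *IMPDH1* show the widest gaps between groups.

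Among the genes that make IMP, *PPAT* (ENSG00000128059, chromosome 4, 56393362 to 56435615, GRCh38) encodes the amidotransferase of the committed step. It stood at 8.57, 9.04 and 9.14 FPKM in TPC-1 and at 11.8, 11.0 and 10.4 FPKM in *RRM2*-OE-TPC-1. All 3 overexpressing libraries were above all 3 controls, and the log2 fold change was 0.31 (SE 0.0575, adjusted p = 0.00176).

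*GART* (ENSG00000159131, chromosome 21, 33503931 to 33543491) encodes a protein with 3 enzyme activities of the route. Its values were 20.9, 19.9 and 20.8 FPKM in TPC-1 and 23.7, 23.3 and 23.1 FPKM in *RRM2*-OE-TPC-1. The groups were separate but close, at 20.5 ± 0.552 and 23.4 ± 0.287 FPKM (SD, n = 3), and the log2 fold change was 0.19 (SE 0.0354, adjusted p = 0.00188). In the annotation 275 of its 7751 exon bases lie opposite exons of *SON*, which was at a mean of 29.3 FPKM. Whether counting used strand is not given in the sources used here, so a part of the *GART* value may come from *SON*.

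*PFAS* (ENSG00000178921, chromosome 17, 8247618 to 8270491) encodes the synthase of the step after the transfer of the first formyl group. It was measured at 13.1, 12.9 and 12.5 FPKM in TPC-1 and at 18.2, 16.5 and 18.0 FPKM in *RRM2*-OE-TPC-1. Its mean was 1.37-fold higher without overlap (log2 fold change 0.45, SE 0.0479, adjusted p = 7.09e-05).

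*PAICS* (ENSG00000128050, chromosome 4, 56435741 to 56464579) encodes the bifunctional enzyme of the carboxylation and succinocarboxamide steps and had the second largest difference of the 10 genes. Its level was 29.0, 27.4 and 27.0 FPKM in TPC-1 and 43.1, 43.0 and 44.7 FPKM in *RRM2*-OE-TPC-1. The mean rose 1.57-fold, from 27.8 ± 1.05 to 43.6 ± 0.954 FPKM (SD, n = 3), a log2 fold change of 0.65 (SE 0.0384, adjusted p = 2.65e-06). The gap between the groups was several times the spread within either.

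*PAICS* and its neighbour *PPAT* both rose, by different amounts. The ratio of their FPKM was 3.38, 3.03 and 2.95 in TPC-1 and 3.66, 3.91 and 4.32 in *RRM2*-OE-TPC-1. All 3 ratios of the overexpressing cells were above those of the controls, by 0.34 on the log2 scale. The 2-sided exact permutation p was 0.1, the smallest that 3 libraries against 3 can give, so this test cannot reach 0.05.

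*ATIC* (ENSG00000138363, chromosome 2, 215311817 to 215349773) encodes the bifunctional protein that adds the second formyl group and closes the ring. Its values were 27.9, 28.3 and 28.6 FPKM in TPC-1 and 35.6, 34.6 and 34.9 FPKM in *RRM2*-OE-TPC-1. It had the smallest standard error of the 10 genes, with a log2 fold change of 0.31 (SE 0.0309, adjusted p = 4.81e-05).

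*ADSL* (ENSG00000239900, chromosome 22, 40346500 to 40390463) encodes adenylosuccinate lyase, which acts both on the way to IMP and on the way from IMP to AMP. It was at 0.750, 0.761 and 0.838 FPKM in TPC-1 and at 0.798, 0.944 and 0.953 FPKM in *RRM2*-OE-TPC-1. The groups overlapped, and the log2 fold change of 0.17 did not pass the test (95% interval -0.14 to 0.49, adjusted p = 0.284). Only 82 to 115 reads per library lay behind these values, against 778 or more for each of the other 9 genes. In the annotation, 68.8% of the coding bases of *ADSL* are also exon bases of AL022238.4 on the same strand, itself listed at a mean of 0.0247 FPKM. How reads over both genes were counted is not given in the sources used here, so the low level of *ADSL* is uncertain as a measure of its mRNA.

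**Figure D2:**
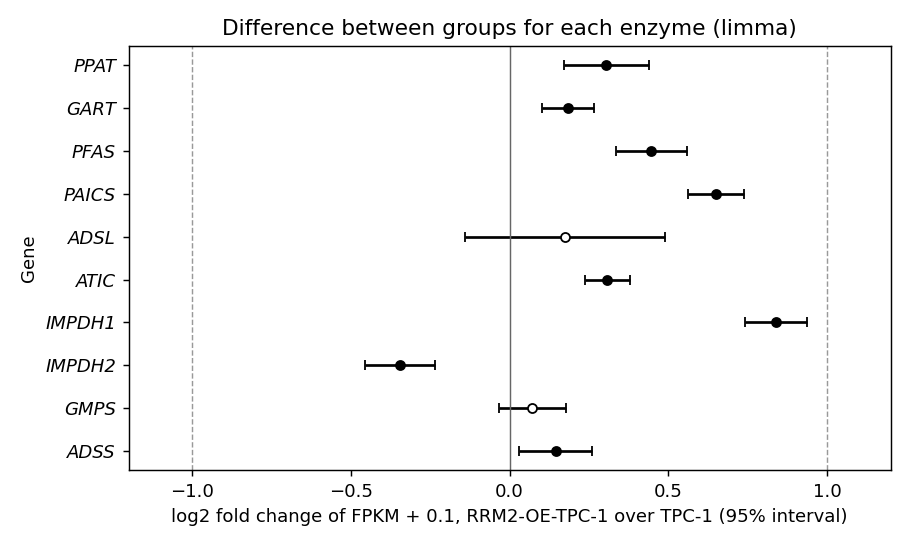
Log2 fold change of FPKM + 0.1, *RRM2*-OE-TPC-1 over TPC-1, for each enzyme gene. Bars are 95% intervals from limma, filled points passed an adjusted p of 0.05, and dashed lines mark a log2 fold change of 1 in each direction. *IMPDH2* alone lies below 0 with its whole interval, the intervals of *ADSL* and *GMPS* include 0, and no point reaches a dashed line.

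After IMP, the branch to GMP begins with IMP dehydrogenase, the rate-limiting enzyme of guanine nucleotide synthesis, which has isozymes encoded by *IMPDH1* and *IMPDH2*. *IMPDH1* is commonly described as the constitutive form and *IMPDH2* as the form raised in proliferating and malignant cells. The isozyme genes moved in opposite directions here.

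*IMPDH1* (ENSG00000106348, chromosome 7, 128392277 to 128410252) was at 17.8, 18.0 and 18.7 FPKM in TPC-1 and at 34.2, 31.8 and 31.7 FPKM in *RRM2*-OE-TPC-1. Its 1.79-fold rise was the largest of the 10 genes (log2 fold change 0.84, SE 0.0426, adjusted p = 1.26e-06), and 93.1% of tested genes had a lower log2 fold change.

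*IMPDH2* (ENSG00000178035, chromosome 3, 49024325 to 49029408) was at 107, 101 and 101 FPKM in TPC-1 and at 77.9, 86.8 and 79.3 FPKM in *RRM2*-OE-TPC-1. Every overexpressing library was below every control, with a mean 0.787 times that of TPC-1 (log2 fold change -0.35, SE 0.048, adjusted p = 0.000316). It remained the highest of the 10 genes.

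*IMPDH1* made up 15.0% ± 0.697 of the summed IMPDH FPKM in TPC-1 against 28.6% ± 1.84 in the overexpressing cells (SD, n = 3). The *IMPDH2* to *IMPDH1* ratio was 6.03, 5.64 and 5.41 in TPC-1 and 2.28, 2.72 and 2.50 in *RRM2*-OE-TPC-1, without overlap. The difference was -1.19 on the log2 scale, with a 2-sided exact permutation p of 0.1, again the smallest possible. The sum of both isozymes was 125, 119 and 120 FPKM in TPC-1 and 112, 119 and 111 FPKM in *RRM2*-OE-TPC-1. The nearest libraries of the 2 groups were both at 119 FPKM, and the means of the sums were 121 ± 3.10 and 114 ± 4.10 FPKM (SD, n = 3).

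**Figure D3:**
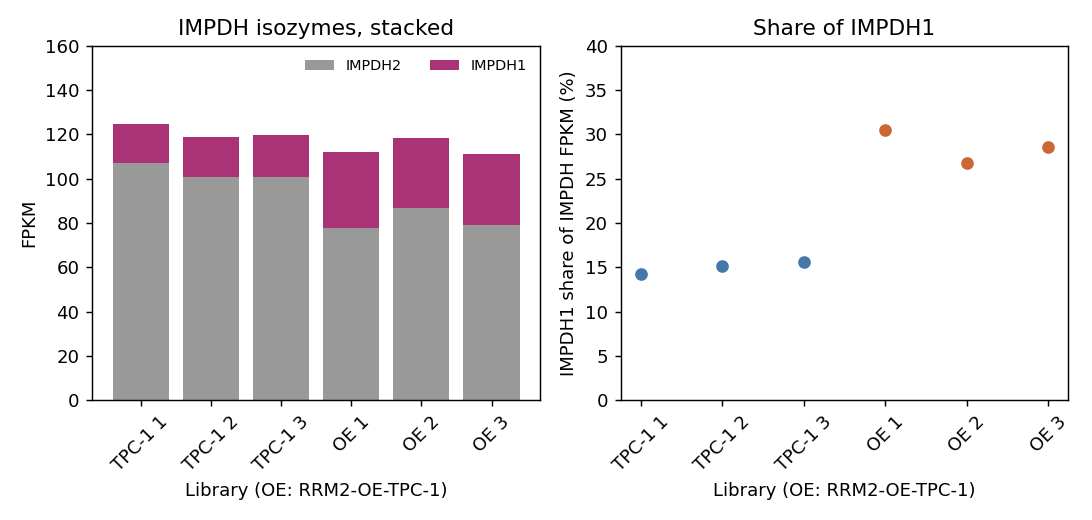
Left, FPKM of *IMPDH2* and *IMPDH1* stacked for each library; right, share of *IMPDH1* in the summed IMPDH FPKM, in percent. The share is 14.2% to 15.6% in the TPC-1 libraries and 26.8% to 30.5% in the *RRM2*-OE-TPC-1 libraries (OE).

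*GMPS* (ENSG00000163655, chromosome 3, 155870536 to 155944026) encodes GMP synthetase, which completes GMP. It was at 20.2, 19.1 and 18.6 FPKM in TPC-1 and at 21.0, 19.4 and 20.4 FPKM in *RRM2*-OE-TPC-1. The groups overlapped and the log2 fold change of 0.07 did not pass the test (95% interval -0.03 to 0.18, adjusted p = 0.197). Between 2633 and 2988 reads lay behind each value.

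*ADSS* (ENSG00000035687, chromosome 1, 244408494 to 244452134) encodes adenylosuccinate synthase, the first enzyme of the AMP branch. It was at 30.8, 31.5 and 35.0 FPKM in TPC-1 and at 36.2, 35.7 and 35.6 FPKM in *RRM2*-OE-TPC-1. Replicate 3 of TPC-1 lay close to the overexpressing libraries, and the log2 fold change was 0.15 (SE 0.0497, adjusted p = 0.0299). This call was lost when any single library other than TPC-1 replicate 3 was left out (adjusted p from 0.0626 to 0.0944), and it held without TPC-1 replicate 3 (adjusted p = 0.00269). Without *ADSS*, 6 of the 10 genes rose.

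The order of the levels changed between the groups. In TPC-1 it ran *IMPDH2*, *ADSS*, *ATIC*, *PAICS*, *GART*, *GMPS*, *IMPDH1*, *PFAS*, *PPAT* and *ADSL*, from high to low. The ranges of *ATIC* and *PAICS* overlapped there, and so did those of *GART* and *GMPS* and of *GMPS* and *IMPDH1*. In *RRM2*-OE-TPC-1 *PAICS* was the second and *IMPDH1* the fifth, and no neighbours overlapped. There the lowest *ADSS* and the highest *ATIC* library were both at 35.6 FPKM as rounded, so the order of these genes rests on a very small gap. The FPKM of the 10 genes summed to 276, 268 and 272 in TPC-1 and to 303, 303 and 299 in *RRM2*-OE-TPC-1, a 1.11-fold higher mean. *IMPDH2* held 37.9% ± 0.816 of this sum in TPC-1 against 27.0% ± 1.48 in the overexpressing cells (SD, n = 3), and without it the sum was 1.30-fold higher. Processed pseudogenes named after these genes numbered 17, from 4 of the genes, and took together at most 1.36% of the reads of their parent gene in any library.

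The genes around the route were counted in 6 further lists and 1 of transcription factors, against the same shares of 34.9% and 32.7% of all tested genes. PRPP, the substrate of PPAT, is made by the PRPP synthetases. Of 4 genes of PRPP supply 3 rose and 1 did not pass. *PRPS1*, a synthetase gene, rose from 17.1 ± 0.0991 to 54.9 ± 0.596 FPKM (SD, n = 3), a log2 fold change of 1.67 (adjusted p = 1.11e-08). This is larger than the difference of any of the 10 enzymes. *PRPSAP2*, an associated protein, had the smallest value, 0.08 (adjusted p = 0.289).

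The formyl groups that GART and ATIC add come from folate one-carbon metabolism, and in the genes listed for it the direction was mostly the reverse. These values are of mRNA and do not measure the supply of formyl groups. Of 9 genes 8 were tested, of which 5 fell, 1 rose and 2 did not pass, with a median log2 fold change of -0.63. The lowest was *ALDH1L2*, the mitochondrial formyltetrahydrofolate dehydrogenase, which went from 26.1 ± 0.339 to 9.08 ± 0.431 FPKM (SD, n = 3), a log2 fold change of -1.51 (adjusted p = 9.74e-08). The highest was *MTHFD1*, the trifunctional cytosolic enzyme, at 0.17 (adjusted p = 0.00301). Outside the rule for named genes and chosen after their values were seen, *MTHFD2* had a log2 fold change of -0.90, *SHMT1* of -0.95 and *SHMT2* of -0.69, and all 3 fell. *MTHFD2* and *SHMT2* encode enzymes of the mitochondrial arm and *SHMT1* one of the cytosolic arm. Also of the mitochondrial arm, *MTHFD1L* had a log2 fold change of -0.01 (adjusted p = 0.922) and *MTHFD2L* of -0.16 (adjusted p = 0.264). Their groups overlapped, so the arm did not fall as a whole. *MTHFS*, 1 of the 5 that fell, had only 32 to 75 reads per library and lost its call when some single library was left out.

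Purine salvage recovers bases and nucleosides in place of building them. All 6 of its genes were tested, of which 5 rose, 0 fell and 1 did not pass, with a median of 0.28. *DCK*, deoxycytidine kinase, which also accepts purine deoxynucleosides, had the largest value, 0.92 (adjusted p = 1.67e-05), although 19.8% of its coding bases are shared with *MOB1B* on the same strand. *DGUOK*, the mitochondrial deoxyguanosine kinase, had the smallest, 0.07 (adjusted p = 0.422).

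Interconversion of purine nucleotides was measured in 11 of 13 genes, of which 6 rose, 4 fell and 1 did not pass. Among the 6 was *AMPD3*, named after its values were seen, at 0.185, 0.289 and 0.36 FPKM in TPC-1. It passed the filter on low values only through *RRM2*-OE-TPC-1 (0.54, 0.748 and 0.665 FPKM), so it could not have been counted as a fall. *NME1*, a nucleoside diphosphate kinase, was highest at 1.15 (adjusted p = 4.35e-06), but 75.6% of its coding bases are shared with the readthrough gene *NME1-NME2* and its value is uncertain. *GMPR*, which encodes a GMP reductase that returns GMP to IMP, was lowest at -0.86 (adjusted p = 0.00559), from a level of 1.07 ± 0.224 FPKM in TPC-1 (SD, n = 3). Its paralog *GMPR2*, named after its values were seen, was higher and fell less. Its means were 13.1 FPKM in TPC-1 and 11.5 FPKM in *RRM2*-OE-TPC-1 (log2 fold change -0.19). Without replicate 2 of TPC-1 or of *RRM2*-OE-TPC-1, 4 and not 6 genes of this list rose, since *AMPD2* and *NME2*, named for this after their values were seen, lost the call.

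Of 9 genes of purine breakdown 8 were tested, of which 4 rose, 3 fell and 1 did not pass. *XDH*, xanthine dehydrogenase, rose from 0.412 ± 0.0482 to 1.51 ± 0.149 FPKM (SD, n = 3), a log2 fold change of 1.65 (adjusted p = 2.32e-05). *NT5C*, a nucleotidase, was lowest at -0.46 (adjusted p = 0.000331). Of its coding bases 58.4% lie opposite exons of AC022211.4, which was at a mean of 0.0528 FPKM. Since the use of strand in counting is not given, the *NT5C* value is uncertain. Levels of *XDH* stayed low in both groups. In TPC-1 it was under 0.5 FPKM in every library (0.367, 0.463 and 0.405). It passed the filter on low values only through *RRM2*-OE-TPC-1, so it could not have been counted as a fall.

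In de novo pyrimidine synthesis, the parallel route, 3 of 5 genes rose, 1 fell and 1 did not pass, with a median of 0.76. *CTPS1*, CTP synthase, rose from 5.71 ± 0.199 to 12.3 ± 0.052 FPKM (SD, n = 3), a log2 fold change of 1.10 (adjusted p = 4.68e-07). *DHODH*, the mitochondrial dihydroorotate dehydrogenase, fell by 0.47 on the log2 scale (adjusted p = 0.000548).

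**Figure D4:**
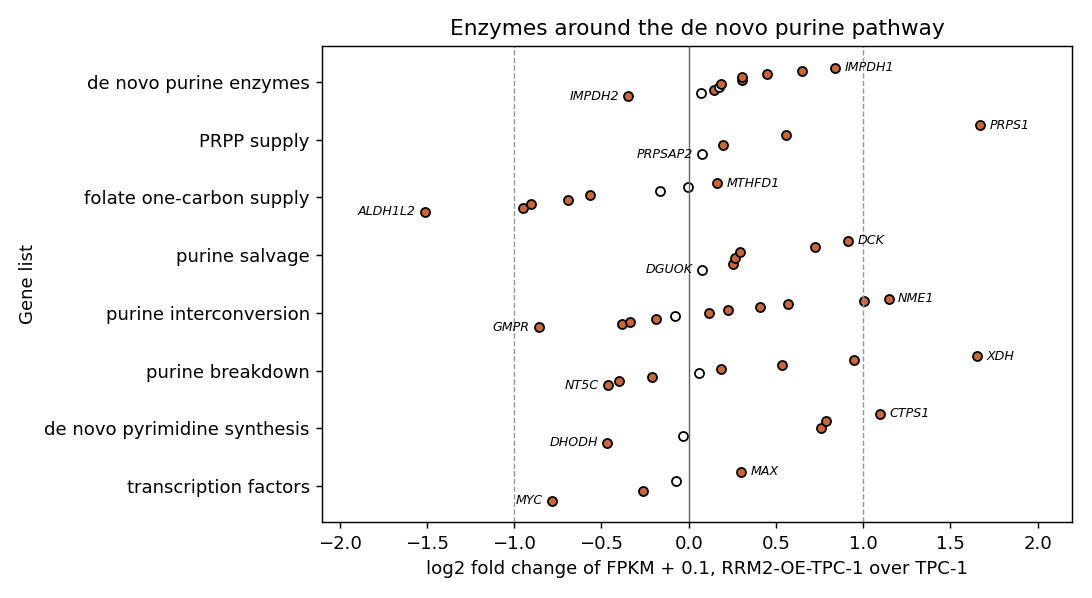
Log2 fold change of FPKM + 0.1 (*RRM2*-OE-TPC-1 over TPC-1) of every tested gene of the de novo purine route and of the lists around it. Each point is a gene, filled where it passed an adjusted p of 0.05, dashed lines mark 1 in each direction, and the genes with the largest and smallest values are named. PRPP supply and salvage have no gene that fell, while the folate list has 5.

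The last list held 4 transcription factors, of which 1 rose, 2 fell and 1 did not pass. *MYC*, whose product binds the E-box with MAX, was at 125 ± 2.54 FPKM in TPC-1 against 72.5 ± 2.67 FPKM in the overexpressing cells (SD, n = 3), and fell by 0.78 on the log2 scale (adjusted p = 8.92e-07). *MAX* rose by 0.30 (adjusted p = 0.00866). *ATF4*, an activator of one-carbon and serine genes in amino acid stress, fell by 0.26 (adjusted p = 0.00038). *NRF1*, a regulator of nuclear genes of mitochondria, had a log2 fold change of -0.07 (adjusted p = 0.497). These values are of mRNA, from which the level of each protein and its binding to the promoters shown above cannot be read. By Western blot the paper reported significantly more c-MYC protein in *RRM2*-OE-TPC-1 than in TPC-1, the opposite direction to the *MYC* mRNA here. Of the 38 calls in the 6 lists and the transcription factors, 5 were lost when some single library was left out, those of *PRPSAP1*, *MTHFS*, *AK1*, *AMPD2* and *NME2*.

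The profiles most like that of *IMPDH1* over the 6 libraries were those of *CCT8* (Pearson r of 0.99988 on the log2 scale), a chaperonin subunit, *PSMC2* (0.99983), a proteasome ATPase, and *XPO4* (0.99972), an exportin. With 6 libraries in 2 groups such values are common, and 814 tested genes (5.98%) had an r above 0.99 with *IMPDH1*.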

How the data were processed

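Directional libraries of 3 wild strain TPC-1 and 3 *RRM2*-OE-TPC-1 samples were sequenced as paired reads. The methods describe poly(A) selection, whereas the labels describe removal of ribosomal RNA and digestion with RNase R. Per the methods, the authors cleaned reads (fastp), mapped them (HISAT2 2.0.5), assigned them to genes (featureCounts 1.5.0), divided by gene length and depth, and deposited FPKM values. They tested counts with DESeq2 1.20.0. These versions and the build GRCh38.p14 are from the submitters' processing notes. All 58735 genes had the same positions in GENCODE 29.

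FPKM multiplied by gene length was a whole multiple of a single step in each library, which gave the depth the authors divided by and the reads behind 100% of values, within 0.01 read. That depth was 1.03 to 1.05 times the reads on genes in TPC-1 and 0.997 to 1.01 times in *RRM2*-OE-TPC-1, and library totals are among the alternatives. Library totals were 14317091 to 17084067 reads on genes. Mitochondrial genes took 4.29% to 5.89% of them. Replicates of a group differed by more than sampling noise (chi-square per degree of freedom 1.82 to 6.00). Genes at 0.5 FPKM and 10 reads or more in at least 3 libraries (13621) were fitted as log2(FPKM + 0.1) with limma 3.58.1 in R 4.3.3, using a variance trend and Benjamini-Hochberg adjustment over all of them. Ratios were compared with exact permutation tests over libraries in Python 3.11.15 with scipy 1.17.1.

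The enzymes, the lists around them and the thresholds were chosen with earlier results of these data known. Some genes of these lists are not reported here and are left out of their counts. Named are the 10 enzymes, *RRM2*, the transcription factors, the largest and smallest log2 fold change in each list, and the 3 profiles most like that of the enzyme gene that changed most. Alternatives were no filter, pseudocounts of 1 and 0.01, median-of-ratios factors, library totals, a replicate block, voom on recovered reads, and leaving out each library.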

Additional observations from a re-analysis of the deposited data

How the results depend on the processing

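Each of the 10 enzyme genes was fitted under 13 alternatives, and of the 130 values 123 kept their direction and their side of the threshold, 7 lost the call and 0 changed sign. All 7 were of *ADSS*, which lost its call without a filter on low values (adjusted p = 0.0808), with library totals (log2 fold change 0.09, adjusted p = 0.181) and without any 1 of 5 libraries. Higher genes numbered 6 or 7 and lower genes 1 in every alternative, with 0 past both thresholds. With library totals the median log2 fold change of the 10 genes was 0.19 in place of 0.25, and the median of all tested genes was -0.05 in place of 0.01. Leaving out a library moved the median between 0.24 and 0.27, the *IMPDH2* to *IMPDH1* log2 difference between -1.25 and -1.12 and that of *PAICS* to *PPAT* between 0.28 and 0.40, where the exact permutation p of 0.2 is the smallest possible. Deviations of libraries with the same number correlated at -0.0105, -0.00603 and -0.055, and those with unlike numbers at -0.0481 to 0.0614. These values gave no sign of pairing by number, but they cannot show how the libraries were prepared. With the replicate block 7 genes rose and 1 fell, as without it, and among all genes 4616 rose and 4318 fell, against 4758 and 4449. With a pseudocount of 1, 716 of all tested genes passed both thresholds, against 1560, since a larger pseudocount shrinks the fold change of low genes.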
